A study of Homo sapiens with 10 samples.

Results

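PIM1, PIM2 and PIM3 encode the PIM serine/threonine kinases. All 3 genes were found by symbol in both deposited expression tables, among 25275 symbols in each. They were chosen by name, with earlier results of these data known. The study asked what the transcription factor STAT3 does in diffuse large B-cell lymphoma of the activated B-cell-like type. RNA-seq was done in TMD8 and OCI-LY10, 2 established human lines of that type, with 3 libraries per line. In each line 1 library came from cells with a control shRNA, 1 from cells with STAT3 shRNA number 10 and 1 from cells with STAT3 shRNA number 16. Every library, controls included, came from transduced cells given doxycycline at 20 ng/ml for 2 days to switch the shRNA on. The other 4 samples of the series are STAT3 ChIP-seq of both lines, 4 h after DMSO or the JAK inhibitor AZD1480, and are not analysed here.

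PIM kinases have no regulatory domain and are active once made, so their activity depends chiefly on transcription, translation and protein turnover. Cytokine receptors that signal through JAK kinases and STAT factors, and NF-kB, are known inducers of PIM genes. The kinases phosphorylate proteins of survival, cell cycle and cap-dependent translation, and share many of these substrates with AKT. In lymphoma, PIM1 is also known as a target of aberrant somatic hypermutation, and PIM2 is known for high expression in late B-lineage and plasma cells.

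The values are FPKM, a read density normalised for gene length and library size, which allows levels of different genes to be compared per length. The 3 OCI-LY10 columns carry names that match their samples. The 3 TMD8 columns carry no names, so they are given by position as columns 1, 2 and 3 and no column is tied to an shRNA. No condition has a second library, and no label says that libraries came from separate cultures. In bulk RNA, fewer cells with a transcript and less transcript per cell cannot be told apart.

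The 250 bases before the RefSeq start of each gene are shown because the study depleted a DNA-binding factor and the 3 genes differed in how they varied. All 3 genes matched the RefSeq promoter table of build GRCh38.p14. The PIM1 window is chr6:37169902-37170151 on the plus strand, the PIM2 window chrX:48919025-48919274 on the minus strand and the PIM3 window chr22:49960522-49960771 on the plus strand. Each is written 5′ to 3′ on the gene's strand. Capitals mark GC boxes (GGGCGG) and octamers (ATGCAAAT), either of them on either strand.
PIM1: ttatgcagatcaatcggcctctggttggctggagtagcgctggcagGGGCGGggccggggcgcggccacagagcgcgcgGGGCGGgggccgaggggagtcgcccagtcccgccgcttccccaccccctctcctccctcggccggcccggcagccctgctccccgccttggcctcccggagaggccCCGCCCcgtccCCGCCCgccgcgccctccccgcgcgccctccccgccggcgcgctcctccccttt
PIM2: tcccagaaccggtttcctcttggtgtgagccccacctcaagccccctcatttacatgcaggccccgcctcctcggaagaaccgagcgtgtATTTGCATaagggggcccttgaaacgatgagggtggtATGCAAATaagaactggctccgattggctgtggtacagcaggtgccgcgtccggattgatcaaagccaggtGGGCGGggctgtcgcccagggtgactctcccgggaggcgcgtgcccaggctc
PIM3: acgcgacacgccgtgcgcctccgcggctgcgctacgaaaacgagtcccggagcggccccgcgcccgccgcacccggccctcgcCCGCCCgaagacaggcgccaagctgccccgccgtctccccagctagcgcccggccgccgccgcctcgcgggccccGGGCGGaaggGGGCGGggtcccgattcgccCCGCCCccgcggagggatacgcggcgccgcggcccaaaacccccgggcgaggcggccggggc

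The 3 windows differ in composition and in the motifs they hold. GC content was 79.6% for PIM1, 61.2% for PIM2 and 82.0% for PIM3, against a median of 58.0% over 35116 promoter windows of the same length. PIM1 and PIM3 each hold 4 GC boxes and PIM2 holds 1. A GC box on either strand was found in 42.6% of all windows, and 2 or more in 24.3%. PIM2 holds 2 octamers, the motif of POU-domain factors such as the B-cell factor OCT-2, one in each orientation. They end 153 and 116 bases before the start. An octamer was found in 1.63% of all windows and 2 or more in 0.0370%, which is 13 windows. PIM2 also holds 1 inverted CCAAT box (ATTGG), found in 32.0% of windows, and it overlaps neither octamer. The palindrome that STAT dimers bind, TTCNNNGAA, was searched on both strands and is not in these letters of any of the 3 genes. It was found in 6.57% of all windows. These matches are descriptions of letters, and binding at them was not measured here.

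**Figure D1:**
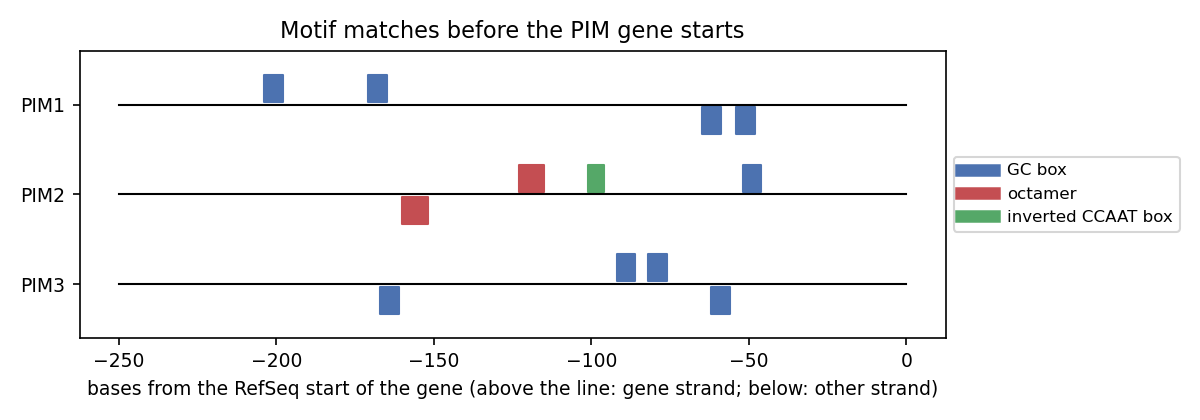
Positions of motif matches in the 250 bases before the RefSeq start of PIM1, PIM2 and PIM3, on a scale of bases from the start. Blocks above a line lie on the gene's strand and blocks below it on the other strand. PIM2 alone of the 3 holds octamers, 2 of them, while PIM1 and PIM3 hold 4 GC boxes each.

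The libraries fell into sets that the labels do not give, and every PIM result below is read beside this. The 2 STAT3 shRNA libraries of OCI-LY10 had a Pearson's r of 0.994 with each other over 11006 genes (log2(FPKM + 1), mean of 1 FPKM or more, no small RNA genes). The library labelled control shRNA of OCI-LY10 had r = 0.845 with each of them, but 0.935 to 0.960 with the TMD8 columns. Whether each library came from the line on its label was not tested, and a library of another line and an effect of the shRNA cannot be told apart here. That holds for every comparison of OCI-LY10 libraries with each other or with TMD8 below. The r values are descriptions across genes, which are not independent, and carry no p. Summed FPKM ran from 905356 to 1382655 per library. Absolute depth is unknown. Ratios of values under 0.1 FPKM pile up at the value of 1 read, and by these ratios depth relative to shRNA 10 was 1.52 in the control library, 0.731 with shRNA 16 and 0.940 in TMD8 column 3. Among these 4 libraries, 20.4% to 29.1% of low values gave ratios in the commonest bin of 0.01 (natural log). In every pair with TMD8 column 1 or 2 the share was 1.14% to 2.83%, so those columns do not share the read steps of the other 4. Small RNA genes made up 22.5% and 28.7% of FPKM in columns 1 and 2, against 43.3% to 58.1% in the others. B-cell markers were present in all 6 libraries, with none of 8 listed at 0 and a sum of 806 to 2676 FPKM. Summed markers of T and NK cells stayed between 0.0390 and 0.478 FPKM, with CD3D and CD2 listed at 0 in all 6. Summed myeloid markers stayed between 0.690 and 1.60 FPKM. Fibroblast and epithelial markers summed to 5.57 to 8.90 FPKM and went both ways. EPCAM was at 4.39 FPKM in both STAT3 shRNA libraries and listed at 0 in the other 4. KRT18 was also highest with the shRNAs, at 0.348 and 0.424 FPKM against 0 to 0.203. COL1A1, DCN and KRT8 were instead lowest there. COL1A1 was at 0.00823 and 0 FPKM against 3.60 in the control library and 0.391 to 0.866 in TMD8. DCN was at 0.0488 and 0 FPKM against 1.14 in the control library and 2.79 to 4.48 in TMD8.

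**Figure D2:**
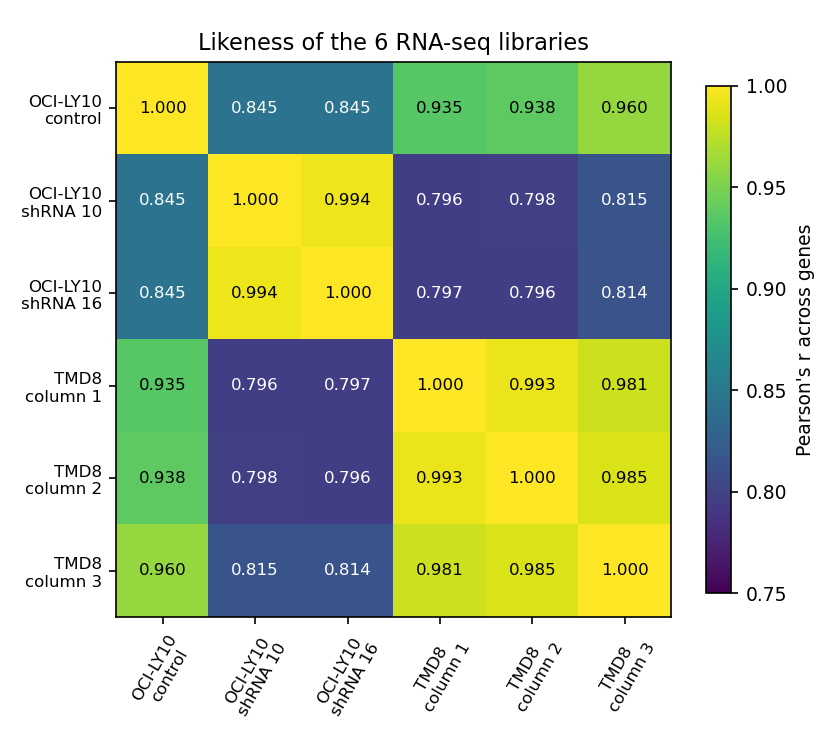
Pearson's r for each pair of the 6 RNA-seq libraries, from log2(FPKM + 1) of 11006 genes, with the value in each square and colour from 0.75 to 1. The OCI-LY10 control library has 0.935 to 0.960 with the TMD8 columns and 0.845 with each STAT3 shRNA library of its own line.

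STAT3, the target of the shRNAs, cannot verify the labels. In OCI-LY10 it was at 16.5 FPKM in the library labelled control, 11.1 with shRNA 10 and 10.6 with shRNA 16, a log2 change of −0.56 (limma adjusted p = 0.0465) that did not pass with a pseudocount of 0.1 or with low values kept. Of all tested genes, 17.4% were called lower. In TMD8, STAT3 stood at 120.3, 24.3 and 22.5 FPKM in columns 1, 2 and 3, so column 1 was 4.94 times column 2. Every TMD8 column lay above every OCI-LY10 library, so a library of another line and an effect of the shRNA cannot be told apart by STAT3 either. These values assign no column to an shRNA.

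PIM1, the founding member of the family and a well-known STAT target, varied most. Its level was 54.6 FPKM in the library labelled control, 321 with STAT3 shRNA 10 and 352 with STAT3 shRNA 16. In the TMD8 columns it was 136.8, 140.3 and 96.8 FPKM. Both STAT3 shRNA libraries were thus the highest of all 6 and the control library the lowest, with the TMD8 columns between them and no overlap of the sets. The share of all genes in this order was not counted, but each part of it was common. Among 10107 genes that average 1 FPKM or more in both tables, both shRNA libraries lay above all TMD8 columns for 36.7%. The control library lay below all TMD8 columns for 44.2%. From lowest to highest the spread was 6.44-fold. Neighbours in this order that lay close were TMD8 columns 1 and 2, 1.03-fold apart, and the 2 STAT3 shRNA libraries, 1.10-fold apart.

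PIM2 was the most abundant PIM transcript in every library. It was at 233.4 FPKM in the library labelled control, 325 with shRNA 10 and 354 with shRNA 16, and at 478, 459 and 342 FPKM in the TMD8 columns. The control library was again the lowest, but here TMD8 columns 1 and 2 were the highest, and column 3 lay between both STAT3 shRNA libraries. The spread from lowest to highest was 2.05-fold.

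PIM3 was the least abundant of the family in every library. It was at 20.6 FPKM in the library labelled control, 18.3 with shRNA 10 and 16.3 with shRNA 16. In the TMD8 columns it was at 51.0, 53.1 and 24.9 FPKM. All 3 OCI-LY10 libraries were therefore below all 3 TMD8 columns, and column 3 was nearer to OCI-LY10 than to columns 1 and 2. The microRNA gene MIR6821 lies within the PIM3 gene in RefSeq and was listed at 0 in all 6 libraries.

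**Figure D3:**
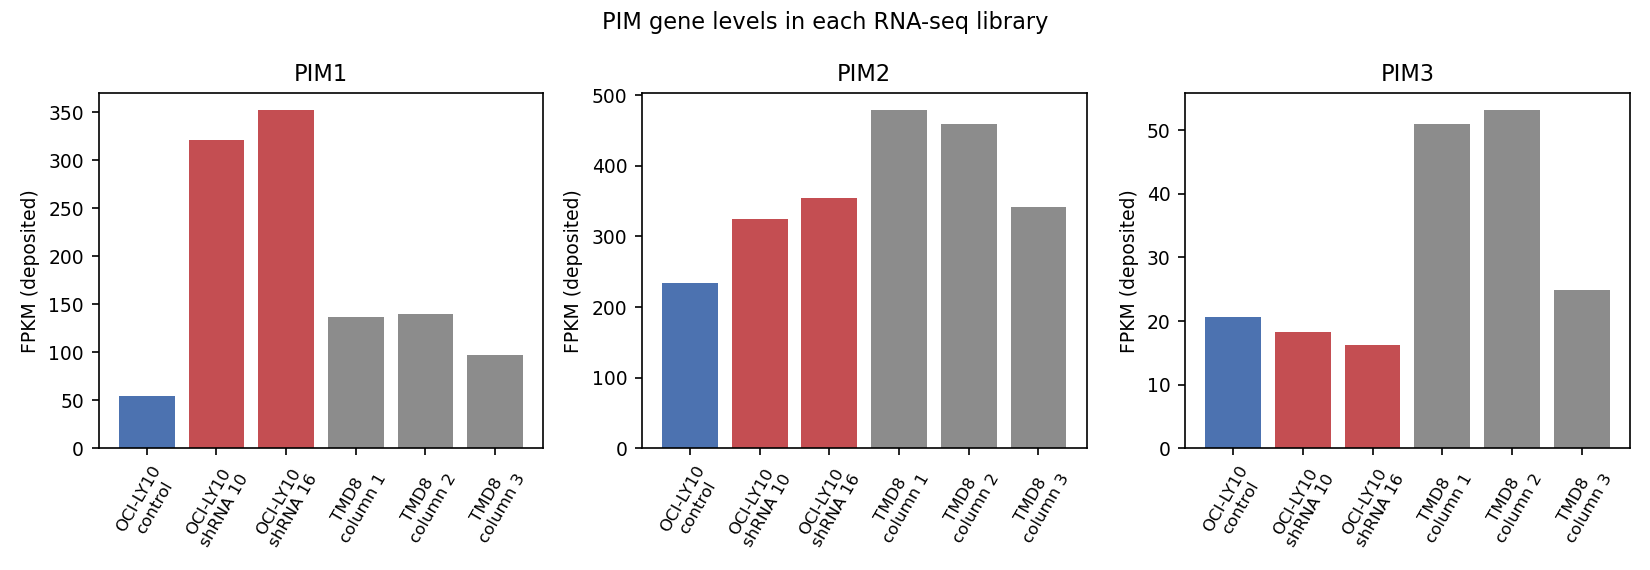
Deposited FPKM of PIM1, PIM2 and PIM3 in each of the 6 RNA-seq libraries, 1 bar per library on axes that start at 0, blue for the OCI-LY10 control, red for its STAT3 shRNAs and grey for the TMD8 columns. PIM1 reaches 321 and 352 FPKM in the red bars and 54.6 in the blue bar, while PIM3 is highest in TMD8 columns 1 and 2 at 51.0 and 53.1.

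The makeup of the family, which does not depend on scaling between libraries, separated both STAT3 shRNA libraries from the other 4. PIM2 made up 75.6% of the summed PIM FPKM in the library labelled control and 71.8%, 70.4% and 73.7% in the TMD8 columns. With shRNA 10 and shRNA 16 it made up 48.9% and 49.1%. PIM1 made up 17.7% in the control library and 20.5%, 21.5% and 20.9% in the TMD8 columns, against 48.3% and 48.7% with the shRNAs. PIM2 was thus 4.27 times PIM1 in the control library and 3.27 to 3.53 times PIM1 in TMD8, but 1.01 times PIM1 in both STAT3 shRNA libraries. PIM3 took 6.66% in the control library, 2.76% with shRNA 10, 2.26% with shRNA 16, and 7.65%, 8.14% and 5.38% in TMD8. The sum of all 3 genes was 308.6 FPKM in the library labelled control, 664 with shRNA 10, 722 with shRNA 16, and 666, 652 and 463 in the TMD8 columns.

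**Figure D4:**
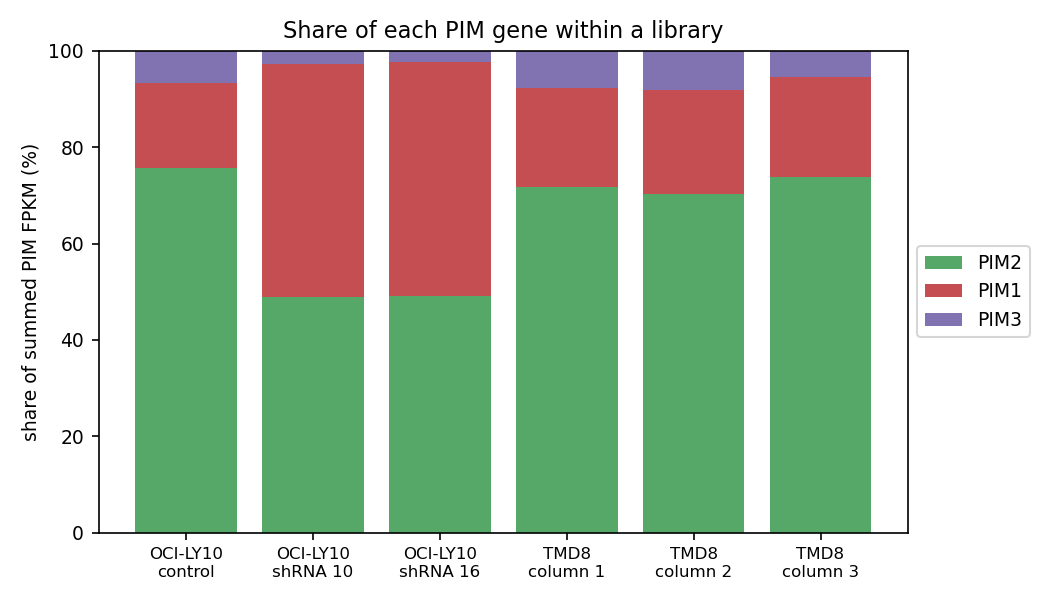
Share of PIM1, PIM2 and PIM3 in the summed PIM FPKM of each library as stacked bars in percent. PIM2 holds 70.4% to 75.6% in the control library and the TMD8 columns, and 48.9% and 49.1% in the STAT3 shRNA libraries.

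PIM1 and PIM2 were among the most abundant transcripts of these cells. Of 23249 genes outside small RNA genes, PIM2 ranked between 156 and 304 in the 6 libraries. PIM1 ranked 1394 in the control library, 215 with shRNA 10, 203 with shRNA 16, and 530, 469 and 739 in TMD8. PIM3 ranked between 1425 and 4216. The PIM family belongs to the CAMK group of kinases, of which 55 listed genes including PIM were measured. PIM2 was first of these in all 6 libraries. PIM1 ranked 2 in 5 libraries and 3 in the control library, where MAPKAPK2, a stress-activated kinase, came before it. PIM3 ranked between 5 and 12.

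In OCI-LY10 the design asks how PIM genes differ when STAT3 is targeted, with the library that stood apart as its reference. With limma on log2(FPKM + 1) over 11162 genes, PIM1 was higher by 2.60 (SE 0.11, adjusted p = 0.00879), a mean of 336 ± 22.0 FPKM (SD, n = 2) against 54.6, or 6.15-fold. PIM2 was higher by 0.54 (SE 0.11) without passing the test (limma adjusted p = 0.0542), at 340 ± 20.9 FPKM (SD, n = 2) against 233.4, or 1.45-fold. It passed under 3 of 9 alternative settings, with the lowest adjusted p at 0.0219 when genes listed at 0 in any library were left out (limma). PIM3 was at −0.24 (SE 0.13, limma adjusted p = 0.236), 17.3 ± 1.44 FPKM (SD, n = 2) against 20.6, or 84.2% of control. So 1 of 3 members was called higher and 0 lower, where 20.3% of all tested genes were called higher and 17.4% lower. A larger absolute change than that of PIM1 was seen in 4.94% of tested genes, than that of PIM2 in 46.2% and than that of PIM3 in 72.7%. The test takes both STAT3 shRNAs as replicates and leaves 1 residual degree of freedom, so its p-values measure only the spread between those shRNA libraries. STAT3 depletion and any other difference of the library labelled control cannot be told apart in it, nor can a library that came from another line. The summed B-cell markers moved with PIM1: they were at 840 FPKM in the library labelled control and 806 to 961 in TMD8, against 2421 and 2676 with the shRNAs, with 6 of 8 higher and CD22 lower. All 5 plasma cell markers were called too. Their sum was 447 FPKM in the library labelled control and 541 to 687 in TMD8, against 192 and 184 with the shRNAs. That fall was chiefly the fall of IRF4, from 411 to 73.8 and 80.8 FPKM, with TMD8 at 478 to 604. SDC1 also fell, from 3.87 to 0.251 and 0.301 FPKM, and PRDM1 from 9.39 to 0.685 and 0.585. XBP1 rose from 20.7 to 77.5 and 67.4 FPKM and TNFRSF17 from 1.57 to 39.8 and 35.0, so the list went both ways. The part of both marker lists in the PIM values was not tested.

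The TMD8 columns give a second view of that difference, with no test. On the log2(FPKM + 1) scale, mean PIM1 in the STAT3 shRNA libraries was 1.44 above the TMD8 mean, while the control library was at −1.16 from it. PIM2 was at −0.31 in the shRNA libraries and −0.85 in the control library from the TMD8 mean, and PIM3 at −1.19 and −0.95. Among genes called in OCI-LY10 outside small RNA genes, the TMD8 median lay nearer the control library than the shRNA libraries for 3436 of 4115, or 83.5%. That share uses the TMD8 median, while the PIM distances above use the TMD8 mean. By the median, PIM1 lay about as far from the control library as from the shRNA libraries, slightly nearer the latter, and so outside that share.

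Between lines, the PIM genes differed in different directions, and these are descriptions across tables that may have been normalized separately. PIM3 was lower in all 3 OCI-LY10 libraries than in all 3 TMD8 columns, at 18.4 ± 2.13 against 43.0 ± 15.7 FPKM (SD, n = 3 each), and PIM1 and PIM2 overlapped. Such complete separation downward was seen in 27.1% of the 10107 genes that average 1 FPKM or more in both tables, so 1 of 3 members is not far from that share. The mean log2 difference, OCI-LY10 minus TMD8, was 0.58 for PIM1, −0.49 for PIM2 and −1.11 for PIM3. Without the control library these became 1.44, −0.31 and −1.19. In that view PIM1 was above all TMD8 columns in both shRNA libraries, as were 36.7% of genes, and PIM3 below all of them, as were 41.9%. The control library lay below all 3 TMD8 columns for 3 of 3 PIM genes, and for 44.2% of genes. Taken only against TMD8 column 3, which shares the read steps of the OCI-LY10 libraries, mean PIM1 in the shRNA libraries was 3.47 times as high, PIM2 0.994 times and PIM3 0.695 times. Column 3 in turn was 1.77, 1.46 and 1.21 times the control library for PIM1, PIM2 and PIM3.

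Within TMD8, all 3 PIM genes were lowest in column 3. Columns 1 and 2 were 1.41 and 1.45 times column 3 for PIM1, 1.40 and 1.34 times for PIM2, and 2.04 and 2.13 times for PIM3. Column 3 was at least 1.3-fold below both others for 7.95% of genes. That limit was set after the PIM values were seen, so all 3 PIM genes meet it by its choice. Their count cannot be weighed against this share. Columns 1 and 2 differed by at most 1.04-fold for any PIM gene. The share of all genes that close in these columns was not counted. STAT3 differed 4.94-fold between them, and a link between STAT3 and PIM levels was not tested. The split of column 3 from the other 2 is also the split in read steps and in the share of small RNA genes, and their part in the PIM values was not tested.

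Between the 2 STAT3 shRNAs in OCI-LY10 the PIM genes differed little. Levels with shRNA 16 were 1.10 times those with shRNA 10 for PIM1, 1.09 times for PIM2 and 0.889 times for PIM3. None of the 3 reached 1.5-fold either way, as 3.62% of tested genes did. With 1 library each there is no test.

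The 3 PIM genes did not share a pattern over the 6 libraries. Likeness was measured as the largest difference over the 6 libraries between log2(FPKM + 1) values centred on each gene's own mean, among 10090 candidate genes. By it, PIM2 was 1.22 from PIM1 and PIM3 was 1.94 from PIM1, while PIM2 and PIM3 were 0.71 apart. The gene nearest to PIM1 was ZBTB38, a zinc finger factor, at a largest difference of 0.10, with 1.62 FPKM in control cells, 14.2 with shRNA 10, 17.3 with shRNA 16 and 5.46, 5.57 and 3.92 in TMD8. TAGAP, a GTPase-activating protein of lymphocytes, and ICAM4, an adhesion molecule, followed at 0.23 each. Nearest to PIM2 were ATP13A2, a lysosomal transport ATPase, at 0.07, NAT6, an acetyltransferase, at 0.09, and VPS51, a vesicle tethering subunit, at 0.10. Nearest to PIM3 were AKIRIN2, a nuclear protein, at 0.12, FBXL17, an F-box protein, at 0.19, and HIGD2A, a mitochondrial inner membrane protein, at 0.22. AKIRIN2 stood at 20.3, 18.7 and 14.8 FPKM in the OCI-LY10 control, shRNA 10 and shRNA 16 libraries and at 47.4, 49.7 and 26.4 in TMD8, each close to PIM3 itself.

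Genes around the PIM kinases were taken from 8 lists. Of these, 7 hold inducers and inhibitors of that induction, substrates, turnover factors and related kinases. The other list holds further targets of aberrant somatic hypermutation. Of 173 genes, 144 were tested in OCI-LY10, and 35 were higher, 37 lower and 72 did not pass (limma, adjusted over all genes tested). Those are 24.3% and 25.7%, beside 20.3% and 17.4% of all tested genes, with a median log2 change of −0.07 beside 0.06. With low values kept, 16 passed upward and 30 downward. Of the 72 called genes, 53 had a TMD8 median nearer to the control library than to the shRNA libraries. In the next 6 paragraphs, changes are between the OCI-LY10 libraries as labelled, by limma on log2(FPKM + 1), with TMD8 levels beside each called gene that is named.

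**Figure D5:**
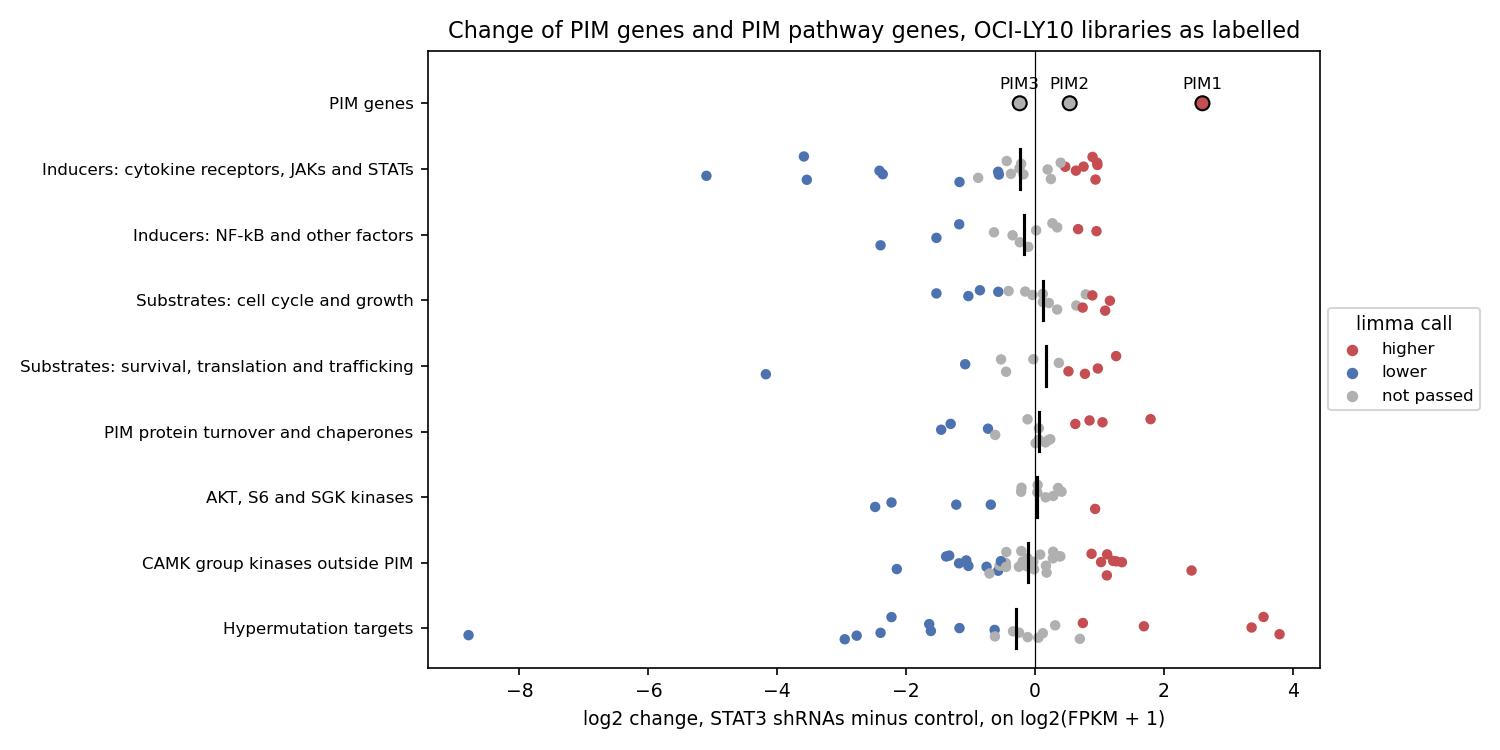
Log2 change on log2(FPKM + 1), STAT3 shRNAs minus the library labelled control in OCI-LY10, for the 3 PIM genes and for tested genes of 8 lists. Each point is a gene, coloured by its limma call, and the black bar is the list's median. PIM1 lies at 2.60, and list medians lie between −0.29 and 0.17.

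Genes of PIM induction went both ways. Of 24 tested genes of cytokines, their receptors, JAK kinases, STAT factors and inhibitors of this signalling, 7 were higher and 8 lower, with a median of −0.23. The list holds inhibitors such as SOCS3, so its counts and median mix inducers with inhibitors. JAK2, a kinase that activates STAT factors, fell by 2.41 (adjusted p = 0.00894), from 11.2 FPKM to 1.36 with shRNA 10 and 1.22 with shRNA 16, against 13.2, 13.8 and 15.0 in TMD8. STAT5A, another activator of PIM genes, rose from 2.69 to 6.11 and 6.32 FPKM (adjusted p = 0.0220) and was at 9.91, 10.8 and 5.07 in TMD8. STAT5B did not pass, at 9.23 against 7.25 and 8.41. IL4R, a cytokine receptor chain, rose by 0.96 to 12.8 and 11.6 FPKM, with TMD8 at 9.11 to 10.7, a call not made when low values were kept. The autocrine cytokine gene IL10 and the feedback inhibitor gene SOCS3 showed the largest falls of the list, IL10 from 97.3 to 1.39 and 2.44 FPKM and SOCS3 from 27.3 to a mean of 1.36 ± 0.194 (SD, n = 2). Both were high in TMD8, IL10 at 72.6 to 89.0 and SOCS3 at 15.5 to 16.6. Among 12 tested genes of NF-kB and other factors, 2 were higher and 3 lower. ETS1, a transcription factor of lymphocytes, rose by 0.67 to 60.7 and 61.4 FPKM, with TMD8 higher still at 67.1 to 76.0. IKBKG, the regulatory subunit of the IKK complex, rose by 0.95, though not when low values were kept, and TMD8 was at 8.95 to 10.6 FPKM beside 9.52 in the control library. IRF4 fell by 2.40 and MYB fell by 1.53, with TMD8 at 478 to 604 FPKM for IRF4 and 7.90 to 9.05 for MYB. Of the 5 NF-kB subunit genes, named after their values were seen apart from RELA, NFKB1 fell by 1.18 (adjusted p = 0.0166), from 63.6 to 26.8 and 28.4 FPKM, and TMD8 lay between at 43.1 to 44.8. RELA, at 30.8 against 38.3 and 40.5 FPKM, did not pass, nor did NFKB2, REL and RELB.

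PIM substrates of cell cycle and growth had 4 of 17 tested genes higher and 4 lower, with a median of 0.12. The cyclin-dependent kinase inhibitor genes did not pass, CDKN1A at 61.3 FPKM against 87.3 and 105.8, and CDKN1B at 15.3 against 15.1 and 18.6. CDKN1A passed when small RNA genes (adjusted p = 0.0393) or genes listed at 0 in any library (adjusted p = 0.0202) were left out. SND1, a transcriptional co-activator, rose from 66.5 to 140.1 and 145 FPKM (adjusted p = 0.0164), and was at 98.2, 91.2 and 83.0 in TMD8. NFATC1 rose by 1.16, a call lost with both other scalings and with low values kept, and TMD8 was at 18.0 to 22.0 FPKM beside 19.5 in the control library. MARK3, a polarity kinase that also lies in the CAMK group, fell by 1.03, with TMD8 at 32.0 to 37.1 FPKM beside 26.1 in the control library. MYC, whose protein PIM kinases stabilise, did not pass (adjusted p = 0.560).

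Substrates of survival, translation and trafficking had 4 of 10 tested genes higher and 2 lower, with a median of 0.17. BAD, the pro-apoptotic protein that PIM kinases inactivate, had 13.8 FPKM in control cells against 20.4 and 19.9 with the shRNAs, a rise of 0.52 (adjusted p = 0.0452). That call was lost with 3 settings, both other scalings and no filter, and TMD8 stood at 19.95, 21.9 and 16.4. FOXO1 rose by 1.26 (adjusted p = 0.0174) to 11.5 and 10.9 FPKM, with TMD8 at 7.72 to 10.4, and FOXO3, at 0.709 to 1.17 FPKM in every library, was not tested. EIF4EBP1, the inhibitor of cap-dependent translation, rose by 0.77 and TSC2, a restraint on mTORC1, by 0.97, both without a call when low values were kept. TMD8 was at 73.3 to 105 FPKM for EIF4EBP1 and 3.98 to 5.30 for TSC2. EIF4B, a translation factor, did not pass at 263 against 320 and 362 FPKM. AKT1S1, an mTORC1 inhibitor also known as PRAS40, fell by 1.08 and lost its call without the filter, with TMD8 at 39.4 to 55.8 FPKM. The chemokine receptor CXCR4, whose surface transport depends on PIM1, fell from 42.4 FPKM to 1.54 with shRNA 10 and 1.27 with shRNA 16 (adjusted p = 0.00733), and was at 66.9, 62.3 and 55.3 in TMD8. In the STAT3 shRNA libraries CXCR4 was the lowest of all 6 and PIM1 the highest. Among genes that average 1 FPKM or more in both tables, both shRNA libraries lay below all TMD8 columns for 41.9%. They lay above all TMD8 columns for 36.7%. Both shares leave out the control library, so they count a looser condition than lowest or highest of all 6. A link between CXCR4 and PIM1 levels was not tested.

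Genes of PIM protein turnover had 4 of 15 tested higher and 3 lower, with a median of 0.06. The chaperone HSP90, which stabilises PIM kinases, has 2 cytosolic genes, and they moved apart. HSP90AA1 fell from 767 to 275 and 283 FPKM (adjusted p = 0.0127), and HSP90AB1 rose from 1627 to 2925 and 2922 (adjusted p = 0.0296), a call not made when low values were kept. In TMD8, HSP90AA1 was at 255, 209.5 and 381 FPKM and HSP90AB1 at 1002, 922 and 1173. HSPA8, a constitutive HSP70 chaperone, rose by 1.05, and lost its call without the filter and with quantile normalization. TMD8, at 160.2 to 208 FPKM, was below all 3 OCI-LY10 libraries. Of protein phosphatase 2A, which counters PIM1, the scaffold gene PPP2R1B rose by 1.79 and the regulatory gene PPP2R5C fell by 1.31, both without a call when low values were kept. TMD8 was at 5.70 to 8.81 FPKM for PPP2R1B and 194 to 237 for PPP2R5C, each beyond the control library. Chaperone genes have processed copies in the genome, so their single values are uncertain.

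Kinases that share substrates with PIM had members called in either direction. Of 13 tested genes of the AKT, S6 and SGK kinases and their partners, 1 was higher and 4 lower, with a median of 0.04. AKT1 fell from 39.3 to 16.7 and 15.9 FPKM (adjusted p = 0.0164) and SGK1 from 5.01 to 0.257 and 0.311. In TMD8, AKT1 stood at 40.9 to 41.4 FPKM, close to the control library, and SGK1 at 2.18 to 6.20. AKT2 did not pass, at 29.4 against 25.3 and 25.3 FPKM, and RPTOR, an mTORC1 subunit, rose by 0.93, with TMD8 at 4.11 to 5.59 FPKM beside 5.47 in the control library. Of 39 tested CAMK group kinases outside the family, 8 were higher and 9 lower. PASK, a metabolic sensor kinase, fell from 25.9 to 11.1 and 10.7 FPKM against 22.0 to 22.2 in TMD8. MARK1 fell by 1.38, with TMD8 at 4.12 to 5.32 FPKM beside 5.83 in the control library. TRIB2, a pseudokinase, fell by 2.14, from 6.05 to 0.554 and 0.636 FPKM, and here TMD8 lay near the shRNA libraries, at 0.552 to 0.969. NUAK2, an AMPK-related kinase, rose by 2.43, from 0.184 to 5.17 and 5.59 FPKM, and TMD8 was also above the control library, at 4.42, 3.44 and 1.02. CAMK4 rose by 1.35, though not without the filter, to 10.8 and 14.1 FPKM, with TMD8 at 6.19 to 7.75. The checkpoint kinase CHEK1 did not pass (adjusted p = 0.301).

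PIM1 was also set beside other targets of aberrant somatic hypermutation in lymphoma. Of 22 tested, 5 were higher and 9 lower, with a median of −0.29. ST6GAL1, a sialyltransferase, rose from 17.5 to 203.1 and 227 FPKM with TMD8 between, at 73.5, 64.3 and 54.0, the same order of the 3 sets as PIM1. OSBPL10 had that order too, from 1.73 to 25.5 and 28.6 FPKM with TMD8 at 5.26 to 6.02. The share of all genes in that order was not counted. BACH2 rose too, from 0.0833 to 13.1 and 15.0 FPKM, but TMD8 stayed at 0.139 to 0.292. BCL7A fell by 2.95, from 13.6 to 0.861 and 0.919 FPKM, and TMD8 was at 27.4 to 34.2. TCL1A fell from 474 to 0.0396 and 0.108 FPKM, with TMD8 at 590 to 600.2.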

How the data were processed

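RNA-seq of 6 libraries was analysed. The authors deposited 2 tables of FPKM, 1 per line, with 25277 rows each. Per the submitters' processing notes, TopHat, Bowtie2 and hg19 were used, with neither version nor role. Not given in the sources used here are the FPKM tool, annotation, strand use and scaling between libraries. The OCI-LY10 columns were matched by name. The 3 unnamed TMD8 columns were tied to the line through the labels that name their table, and not to an shRNA. Rows of 2 repeated symbols were summed, and 26 date-like symbols were not named. Members, lists and tests were chosen with earlier results of these data known.

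Genes of mean at least 1 FPKM in OCI-LY10 were tested with limma 3.58.1 (R 4.3.3) on log2(FPKM + 1), with a mean-variance trend, two-sided, Benjamini-Hochberg over all 11162 genes and a threshold of 0.05. The fit had 1 residual and 1.64 prior degrees of freedom. It was tested on simulated data. Fold changes on this scale understate low genes. Lists are described by counts and medians. Genes were named by rule: PIM genes, STAT3, 20 fixed genes, up to 2 rising and 2 falling genes per list, and 3 genes most like each member. One gene of that rule is not reported here. EPCAM, other cell type markers, NF-kB subunits other than RELA, OSBPL10, MIR6821 and MAPKAPK2 were named after their values were seen. Alternatives were other pseudocounts, filters, scalings and left-out libraries. Promoters are from RefSeq, build GRCh38.p14. Figures used matplotlib 3.10.9.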

Additional observations from a re-analysis of the deposited data

How the results depend on the processing

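PIM1 stayed called higher under all 9 alternative fits, with log2 changes of 2.51 to 2.62 and adjusted p of 0.000118 to 0.0322 (limma). PIM3 was called under none of them (adjusted p of 0.155 to 0.279), and its log2 change stayed between −0.31 and −0.20. PIM2 ranged from 0.46 to 0.58, and passed with quantile normalization (0.58, adjusted p = 0.0316), without small RNA genes (0.54, adjusted p = 0.0280) and without genes listed at 0 in any library (0.54, adjusted p = 0.0219). The cause was not tested. With only 1 STAT3 shRNA library, which leaves no test, PIM1 was at 2.53 and 2.66, PIM2 at 0.47 and 0.60, and PIM3 at −0.32 and −0.16. Leaving out 1 library at a time, the difference OCI-LY10 minus TMD8 ran from 0.11 to 1.44 for PIM1, the highest without the control library and the lowest without the shRNA 16 library. It ran from −0.64 to −0.31 for PIM2 and from −1.46 to −0.93 for PIM3. Over all genes, 1299 were called higher without the filter on low values, against 2263, and 1178 lower with a mean of at least 5 FPKM, against 1943, where fewer genes were tested. PIM pathway genes called higher fell to 16 from 35 without the filter. Of 37 called named pathway genes, 13 lost the call in some setting, all 13 without the filter, and none changed direction. The control library has no replicate and cannot be left out of the fit. No paired analysis was possible because each shRNA has 1 library per line and the TMD8 columns carry no names. FPKM gives no counts, so no counting interval is given.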
